A study of Aspergillus nidulans with 12 samples.

Results

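The regions described here are stretches of the Aspergillus nidulans genome at which anti-FLAG peaks were called in 2 or more libraries of a VeA::FLAG strain, of a LaeA::FLAG strain, or of both, in chromatin immunoprecipitation followed by sequencing (ChIP-seq). Peak centres up to 100 bp apart in the 3 VeA::FLAG and 3 LaeA::FLAG libraries were chained into 16590 regions, and the libraries of each strain with a peak were counted at each region. Of these regions, 1752 fell into 3 kinds. They were 214 regions with a peak in 2 or more libraries of both strains, 1414 in 2 or more VeA::FLAG libraries and no LaeA::FLAG library (VeA::FLAG-only), and 124 in 2 or more LaeA::FLAG libraries and no VeA::FLAG library (LaeA::FLAG-only). These numbers are 1.29%, 8.52% and 0.747% of all chained regions, and they follow from the rule, so no test was made of them.

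The VeA::FLAG strain (RJW324.3) and the LaeA::FLAG strain (RJW302.11) each carried a 3×FLAG tag at the C terminus of the regulator at its own locus, next to an AfriboB marker, and each was a single progeny of a sexual cross. The genotypes given are veA::FLAG::AfriboB for the first and laeA::FLAG::AfriboB, veA for the second. The wild type (WT, RDIT9.32) carried no tag. All 3 strains were grown for 24 h as vegetative cells in liquid glucose minimal medium in the dark. Each strain gave 3 libraries precipitated with a mouse monoclonal anti-FLAG antibody and 1 with anti-rabbit IgG, which the peak lists of that strain set beside each anti-FLAG library.

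VeA is the founding member of the velvet proteins, a fungal family that shares a DNA-binding velvet domain and controls sporulation, fruiting body formation and secondary metabolism. In the dark VeA enters the nucleus with its partner VelB, and there it also meets LaeA, a nuclear protein with a methyltransferase fold that is known as a global regulator of secondary metabolite gene clusters. Sites occupied by one of these proteins and not the other bear on which functions they carry together and which apart.

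The tagged libraries held 970628 to 3701440 tags and 557 to 5783 peaks, the lowest peak number being that of LaeA::FLAG replicate 3, which was the most deeply sequenced of the 6. The LaeA::FLAG IgG library held 10610394 tags and the VeA::FLAG IgG library 2095244.5, so the 2 strains had controls of unequal depth. Nothing in the labels places the libraries of a strain in separate cultures, so any p-value measures only the spread between these libraries. The peak lists give no signal where a peak was not called. A region of 1 strain only is therefore a region without a call in the other strain, not a region shown to be unbound there.

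The first question was how far the calls of the 2 strains fell on the same places. A peak in 2 or more VeA::FLAG libraries was found at 2022 regions, and of these 10.6% were in 2 or more LaeA::FLAG libraries, 19.5% in exactly 1 and 69.9% in none. A peak in 2 or more LaeA::FLAG libraries was found at 418 regions, and of these 51.2% were in 2 or more VeA::FLAG libraries, 19.1% in 1 and 29.7% in none. The lists differ in length. When each library was reduced to its 557 highest-scoring peaks, the 2 shares were 33.1% and 44.6%, and the kinds held 104, 117 and 89 regions. Without LaeA::FLAG replicate 1 or replicate 2 the VeA::FLAG share was 4.83% or 4.59%, with 97 or 92 regions of both strains.

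**Figure D1:**
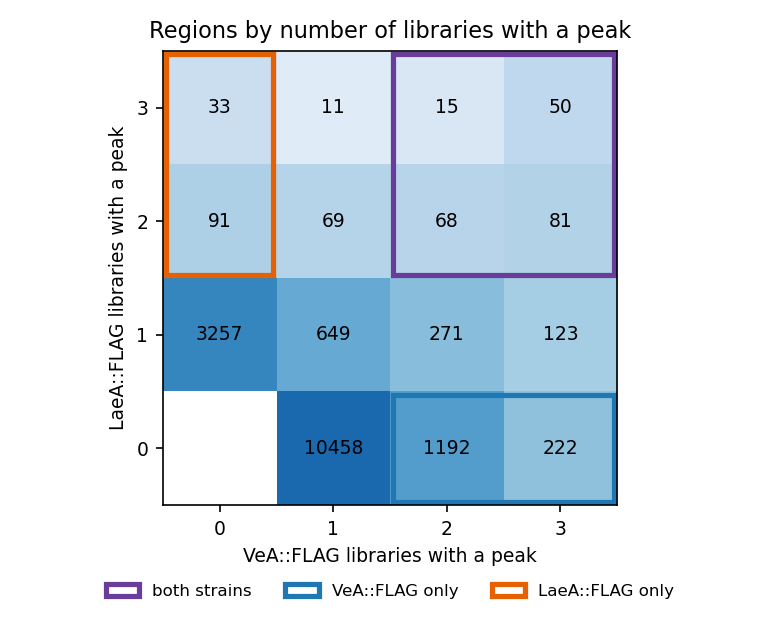
Number of chained regions by the number of VeA::FLAG libraries (horizontal axis) and LaeA::FLAG libraries (vertical axis) with a peak, with darker cells holding more regions. The outlines mark the 3 kinds. The cell of all 6 libraries holds 50 regions and the cell of a single VeA::FLAG library holds 10458.

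Regions called in every library of a strain split in another way. Of 476 regions in all 3 VeA::FLAG libraries, 131 were in 2 or more LaeA::FLAG libraries and 222 in none. Of 109 regions in all 3 LaeA::FLAG libraries, 65 were in 2 or more VeA::FLAG libraries and 33 in none, and only 11 were in exactly 1. The VeA::FLAG-only regions came from replicates 2 and 3 at 527 regions, replicates 1 and 2 at 351, replicates 1 and 3 at 314 and all 3 at 222. The LaeA::FLAG-only regions came from replicates 1 and 2 at 63 regions, all 3 at 33, replicates 2 and 3 at 17 and replicates 1 and 3 at 11. Members just inside and just outside the 2-library threshold differed in rank. The median within-library score percentile was 52.4 at VeA::FLAG-only regions in 2 libraries, 65.5 at those in 3, and 42.4 at the 10458 regions in 1 VeA::FLAG library alone, just outside the rule. The corresponding LaeA::FLAG percentiles were 61.3, 98.2 and 38.5.

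Regions of both strains were among the higher-scoring peaks. Their median score percentile was 93.4, 94.9 and 94.5 in VeA::FLAG replicates 1, 2 and 3 and 88.3, 84.6 and 74.9 in the LaeA::FLAG replicates, whereas VeA::FLAG-only regions had medians of 56.6, 62.5 and 59.5. LaeA::FLAG-only regions had medians of 80.8, 83.0 and 81.7 in the LaeA::FLAG replicates, close to those of both strains in replicate 2 and above them in replicate 3. Rank rose with the number of libraries, and the kinds differ in that number by the rule. These contrasts and the quintile shares below are therefore not independent of it. In 2 VeA::FLAG libraries, the median VeA::FLAG percentile was 90.4 with 2 LaeA::FLAG libraries and 52.4 with none. In 3 VeA::FLAG libraries it was 96.9 with 3 LaeA::FLAG libraries and 65.5 with none. When the 2022 VeA::FLAG regions were divided into quintiles by mean percentile, a division made after the values were seen, 1.23% of the lowest quintile and 34.9% of the highest were in 2 or more LaeA::FLAG libraries. The share without any LaeA::FLAG peak fell from 91.4% to 34.7% over the same quintiles. Across the 214 regions of both strains the mean VeA::FLAG and LaeA::FLAG percentiles had a Pearson correlation of 0.58 and a Spearman correlation of 0.69, given as a description, since every point shares the same 6 libraries and list lengths. A mean percentile of 90 or more was reached by 129 of the 214 regions in VeA::FLAG, by 52 in LaeA::FLAG and by 48 in both.

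The LaeA::FLAG regions did not follow the same course. From the lowest to the fourth quintile the share in 2 or more VeA::FLAG libraries went from 27.4% to 68.7%, and in the highest quintile it was 48.2%. In that highest quintile 35 of 83 regions had no VeA::FLAG peak at all, and 33 of these 35 had a WT peak within 100 bp, since only 2 were without one. LaeA::FLAG-only regions without a WT peak numbered 35, 16, 9, 10 and 2 from the lowest to the highest quintile.

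**Figure D2:**
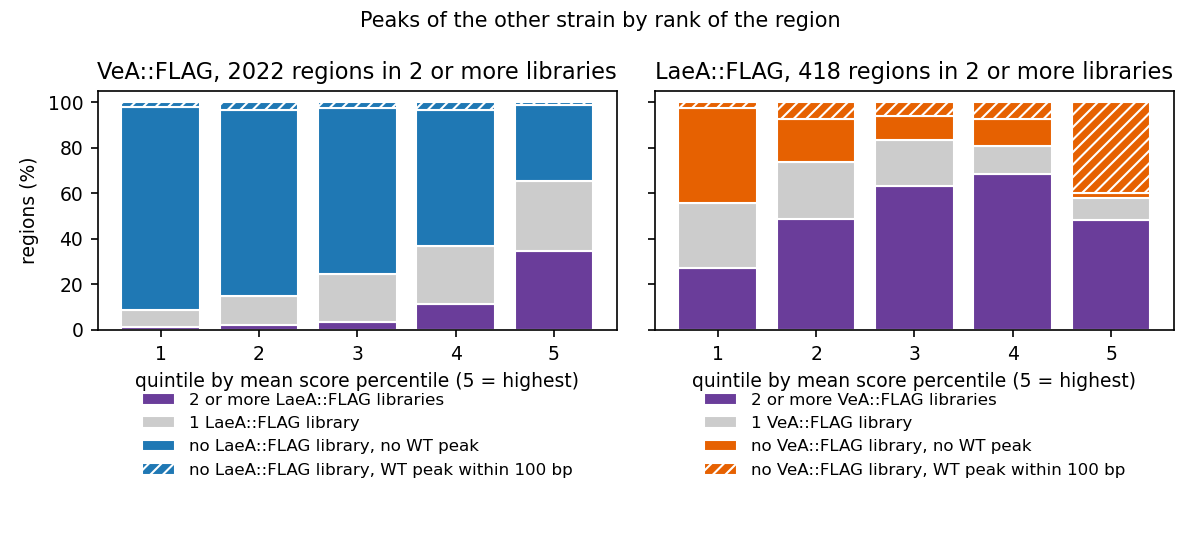
Share of regions in 2 or more libraries of VeA::FLAG (left) and LaeA::FLAG (right), in quintiles by mean within-library score percentile, that also had peaks in 2 or more (purple), 1 (grey) or no (blue or orange) libraries of the other strain, with hatching for a WT peak within 100 bp. Among LaeA::FLAG regions the hatched part is largest in the highest quintile, where 33 regions lacked a VeA::FLAG peak and had a WT peak.

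WT cells carry no epitope, so an anti-FLAG peak in them marks places precipitated without a tagged protein. The WT libraries were uneven, with 319742 tags in replicate 3 and 7974006 in replicate 1. Replicate 1 had the fewest peaks, 134, and replicate 2 the most, 1831. A region without a WT peak is therefore a region without a call in WT, not one shown to lack untagged precipitation. A WT peak lay within 100 bp of 14 of 214 regions of both strains (6.54%, 95% Wilson interval 3.94 to 10.7), 50 of 1414 VeA::FLAG-only regions (3.54%, 2.69 to 4.63) and 52 of 124 LaeA::FLAG-only regions (41.9%, 33.6 to 50.7), against 2.48% of all 16590 regions. These intervals cover counting error only. A region is marked when any of its peaks has a WT peak centre within 100 bp, so wider regions are searched over a longer stretch. The median span of centres was 113 bp for both strains, 44 bp for VeA::FLAG-only, 41.5 bp for LaeA::FLAG-only and 0 bp for all regions. Of the 33 LaeA::FLAG-only regions called in all 3 libraries, 31 (93.9%) had a WT peak, compared with 3 of the 50 regions in all 6 libraries and 11 of the 222 VeA::FLAG-only regions in all 3. The WT peaks at LaeA::FLAG-only regions came from WT replicate 3 at 48 regions, replicate 2 at 43 and replicate 1 at 6. Without WT replicate 2 the 3 shares were 2.34%, 0.778% and 38.7%. Without LaeA::FLAG replicate 1 or replicate 2 the LaeA::FLAG-only share was 70.2% of 47 regions or 72.1% of 43.

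The share of single peaks near a WT peak was compared between the strains over libraries. It was 2.33%, 2.33% and 2.21% in VeA::FLAG replicates 1, 2 and 3 and 3.80%, 6.09% and 8.98% in the LaeA::FLAG replicates. Every LaeA::FLAG library lay above every VeA::FLAG library. The difference was -4.00 percentage points for VeA::FLAG minus LaeA::FLAG, with group SDs of 0.066 and 2.59 (n = 3 each). It was -2.66 points without LaeA::FLAG replicate 3 and -6.46 points with equal numbers of top-scoring peaks. The exact two-sided permutation test gave p = 0.1 (adjusted p = 0.15 over 6 shares), the least that 20 divisions of the libraries allow.

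IgG signal, a second measure of untagged precipitation, was compared next. Signal is given in tags per 10 M tags of a library and was divided by the length of the merged region that holds the peak. In the WT IgG library, which the lists of the tagged strains do not use, the median per kb was 426 at regions of both strains, 355 at VeA::FLAG-only regions and 622 at LaeA::FLAG-only regions, against 306 over all 21897 merged regions. LaeA::FLAG-only regions with a WT peak had a median of 1958 and those without one 328. The highest 5% of merged regions by WT IgG signal held 51 of the 124 LaeA::FLAG-only regions (41.1%), 19 of the 214 regions of both strains (8.88%) and 78 of the 1414 VeA::FLAG-only regions (5.52%). In the VeA::FLAG IgG library the medians were 135, 103 and 823, and 60 LaeA::FLAG-only regions were in its highest 5%, against 1 region of both strains and 4 VeA::FLAG-only regions. This last contrast may be bound to the calling, since the lists of VeA::FLAG set that library beside each peak. Whether it was the control of the calling is not given. The same limit holds for the LaeA::FLAG IgG library and the lists of LaeA::FLAG. In the LaeA::FLAG IgG library the medians were close, at 414, 413 and 408, but its highest 5% held 32 LaeA::FLAG-only regions (25.8%), against 5.14% of regions of both strains and 7.07% of VeA::FLAG-only regions. The LaeA::FLAG-only median in that library was 788 with a WT peak and 341 without one. How far the untagged signal makes up the LaeA::FLAG-only calls was not tested, and each strain had 1 IgG library without a replicate.

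**Figure D3:**
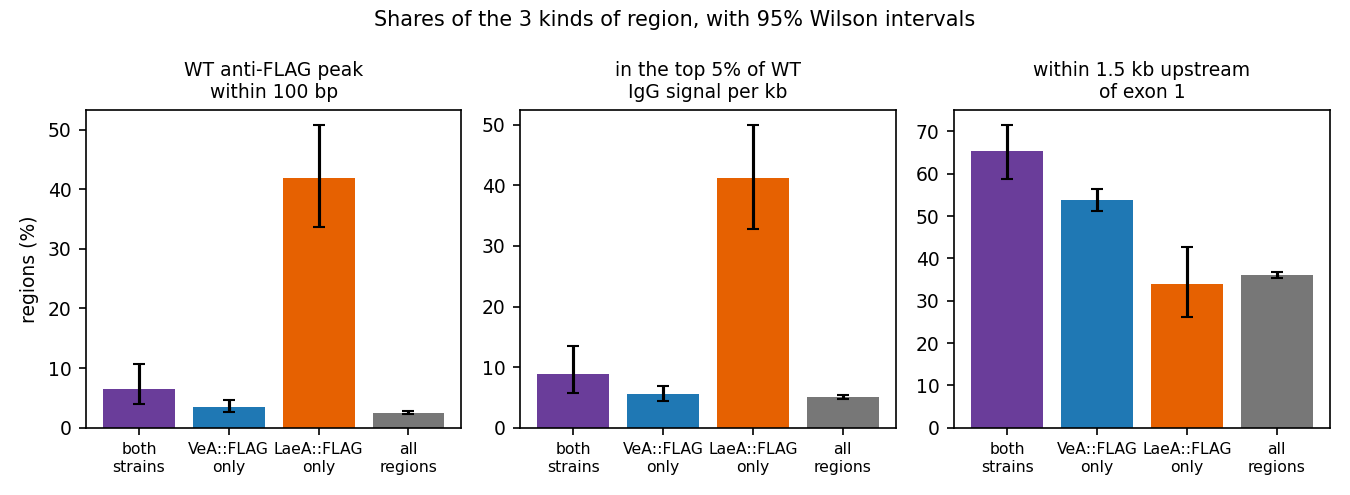
Share of regions of each kind, and of all 16590 chained regions, with a WT anti-FLAG peak within 100 bp (left), in the top 5% of merged regions by WT IgG signal per kb (middle) and within 1.5 kb upstream of exon 1 (right). Bars are percentages and error bars 95% Wilson intervals. LaeA::FLAG-only regions stand at 41.9% and 41.1% in the first 2 panels and at 33.9% in the third.

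The next question was where the regions lie relative to genes. A region was placed in an exon 1 promoter when the nearest annotated exon start was that of exon 1 and lay up to 1.5 kb downstream of the peak. This held for 140 of 214 regions of both strains (65.4%, 58.8 to 71.5), 762 of 1414 VeA::FLAG-only regions (53.9%, 51.3 to 56.5) and 42 of 124 LaeA::FLAG-only regions (33.9%, 26.1 to 42.6), against 36.1% of all regions. The order of the first 2 kinds depends on rank. VeA::FLAG-only regions in all 3 libraries reached 69.8%, and with equal numbers of top-scoring peaks the shares were 57.7% for both strains, 64.1% for VeA::FLAG-only and 38.2% for LaeA::FLAG-only regions. Among LaeA::FLAG-only regions the share was 25% with a WT peak and 40.3% without one.

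Within these promoters the kinds lay at unlike distances. The median distance from exon 1 was -447 bp for regions of both strains, -242.5 bp for VeA::FLAG-only and -521 bp for LaeA::FLAG-only regions, against -301 bp for all regions. Of exon 1 promoter regions alone, the 100 bp next to exon 1 held 10% for both strains, 23.6% for VeA::FLAG-only and 9.52% for LaeA::FLAG-only. For all regions it was 19.3%. The shares that follow are of all regions of a kind, in promoters or not, so they also carry the promoter share. The 200 bp next to exon 1 held 325 VeA::FLAG-only regions (23.0%), 39 regions of both strains (18.2%) and 9 LaeA::FLAG-only regions (7.26%). It held 33.8% of the VeA::FLAG-only regions called in all 3 libraries, against 13.4% of all regions. The stretch from over 800 to 1500 bp upstream held 14.5% of regions of both strains, 7.28% of VeA::FLAG-only, 7.26% of LaeA::FLAG-only and 6.0% of all regions. The intergenic class of the annotation held 17.3% of regions of both strains, 6.72% of VeA::FLAG-only, 12.9% of LaeA::FLAG-only and 5.75% of all regions. Transfer RNA genes, looked at after the values were seen, were the nearest gene at 34 VeA::FLAG-only regions (2.40%), 5 LaeA::FLAG-only regions (4.03%) and 0 of 214 regions of both strains (95% Wilson interval up to 1.76%), against 1.13% of all regions.

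**Figure D4:**
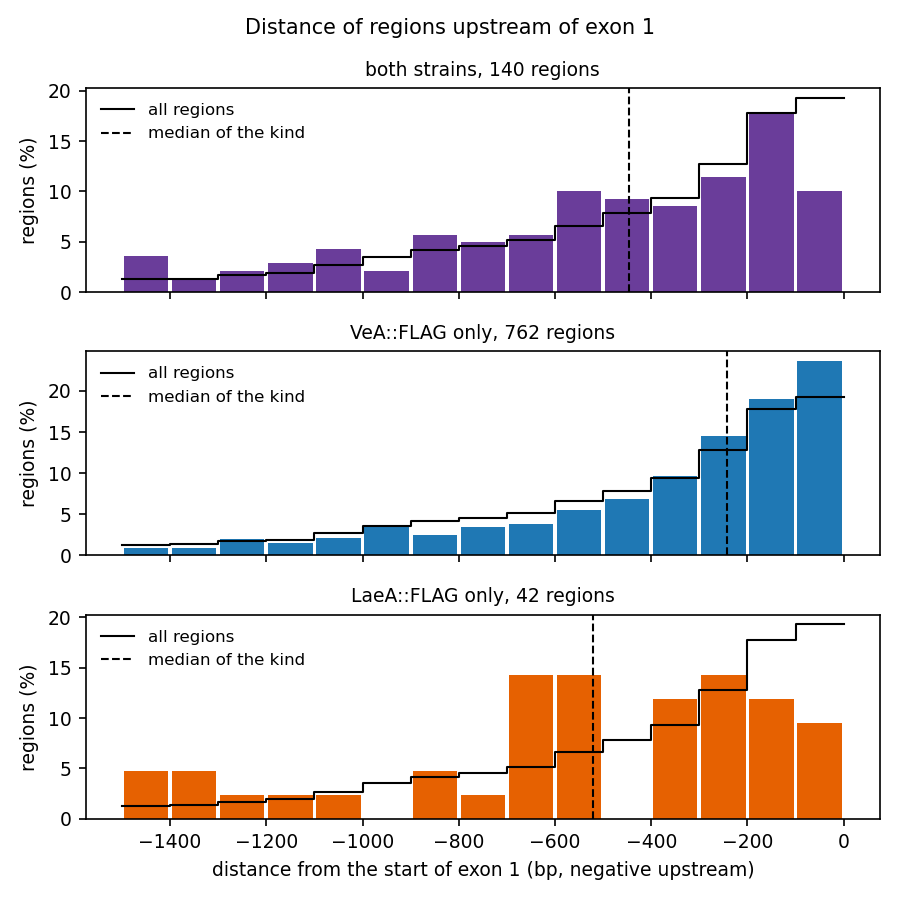
Distance of exon 1 promoter regions from the start of exon 1 in bp, in bins of 100 bp, for 140 regions of both strains, 762 VeA::FLAG-only and 42 LaeA::FLAG-only regions. Bars give the percentage of the kind, the black line all chained regions and the dashed line the median of the kind, which stands at -447, -242.5 and -521 bp.

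The same measures were compared between strains over whole libraries. The median distance of exon 1 promoter peaks was -286, -274 and -288 bp in the VeA::FLAG replicates and -366, -329 and -449 bp in the LaeA::FLAG replicates, so that peaks lay nearer to exon 1 in each VeA::FLAG library (98.7 bp difference of means, exact two-sided permutation test, p = 0.1, a test added after the values were seen). The share of all peaks in exon 1 promoters was 41.6%, 41.3% and 41.3% in VeA::FLAG and 38.4%, 39.5% and 45.6% in LaeA::FLAG, and the groups overlapped (difference 0.22 percentage points, exact permutation test, p = 1). Leaving out LaeA::FLAG replicate 3 moved this difference to 2.44 points, and with equal numbers of top-scoring peaks it was 10.4 points, with every VeA::FLAG library above every LaeA::FLAG library (exact permutation test, p = 0.1). The promoter class of the deposited annotation, which counts any exon start, held 71.4%, 71.9% and 71.3% of VeA::FLAG peaks and 67.7%, 70.1% and 67.0% of LaeA::FLAG peaks. The libraries of the strains did not overlap, and the difference of 3.27 points had adjusted p = 0.15 by the same exact permutation test. It was 0.06 points with equal numbers of top-scoring peaks.

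Regions of both strains lay at the genes of the regulators themselves. They had 206 distinct nearest genes, 205 of them among the 9495 genes nearest to any merged region (2.16%, against 13.8% for VeA::FLAG-only and 1.27% for LaeA::FLAG-only regions), and 24 of the 206 had a symbol. velB, which encodes the velvet partner that enters the nucleus with VeA, had a region 468 bp upstream of exon 1 on chromosome VIII (3784956-3785317, FGSC A4 assembly) in all 6 libraries. Its signal was 3484, 3642 and 2016 tags per 10 M in VeA::FLAG replicates 1, 2 and 3 and 369, 747 and 538 tags per 10 M in the 3 replicates of LaeA::FLAG. All 3 VeA::FLAG values lay above all LaeA::FLAG values, though signals of different precipitations are not on 1 scale and no test was made.

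veA had 2 regions of both strains and 1 VeA::FLAG-only region, all upstream of exon 1 on chromosome VIII. The nearest (1669942-1670291, 505 bp upstream) had peaks in all 6 libraries, with signals of 1044, 1693 and 1205 tags per 10 M in VeA::FLAG and 2045, 1324 and 933 tags per 10 M in LaeA::FLAG, and it kept its kind in 10 of 10 alternative settings. The next (1670674-1670894, 1254 bp upstream) had 731, 903 and 669.6 tags per 10 M in VeA::FLAG and 848 and 757 tags per 10 M in LaeA::FLAG replicates 1 and 2, with no peak in replicate 3. Neither list called on pooled tags held a peak on it, the closest being 651 bp (VeA::FLAG) and 573 bp (LaeA::FLAG) away. Both strains overlapped in signal at each of these regions. Farther up, a region 2048 bp from veA (1671443-1671693) was called in VeA::FLAG replicates 1 and 2 only, at 1249 and 1049 tags per 10 M, although the list called on pooled LaeA::FLAG tags also held a peak on it. Beyond it, at 1672305-1672628, a region called in LaeA::FLAG replicates 2 and 3, at 685 and 747 tags per 10 M, was assigned to AN10160. By single-library calls the stretch upstream of veA held all 3 kinds, and none of the 4 regions had a WT peak.

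laeA had a region 524 bp upstream of exon 1 (chromosome VIII, 2424408-2424742) with 521, 988 and 577 tags per 10 M in VeA::FLAG and 644 and 727 tags per 10 M in LaeA::FLAG replicates 1 and 3. The ranges of the strains overlapped, and LaeA::FLAG replicate 2 had no call there. A peak of LaeA::FLAG replicate 1 alone, of 522 tags per 10 M, was annotated to the end of laeA, on the side of the tag, and belongs to none of the 3 kinds.

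Other regulators of development were near regions of both strains. steA, which encodes a homeodomain transcription factor needed for fruiting bodies, had a region 313 bp upstream with 620, 898 and 405 tags per 10 M in VeA::FLAG and 399 and 592 tags per 10 M in LaeA::FLAG replicates 1 and 2. The closest pooled LaeA::FLAG peak was 1063 bp away, and the region kept its kind in 6 of 10 settings. nsdD, which encodes a GATA factor that activates sexual development, had its region at the gene end by the annotation, with 1521 and 673 tags per 10 M in VeA::FLAG replicates 1 and 3 and 788 and 1245 tags per 10 M in LaeA::FLAG replicates 2 and 3. This nsdD region kept its kind in 5 of 10 settings, and a VeA::FLAG-only region in replicates 1 and 3 lay beside it. Another region next to these was called in all 3 VeA::FLAG libraries and in LaeA::FLAG replicate 2, which puts it in none of the 3 kinds. gprD, encoding a receptor of the G protein-coupled family, had a region 236 bp upstream in 5 libraries. The signals of steA and nsdD overlapped between strains.

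Genes of metabolism and of the cell wall were also among the named regions of both strains. sreA, the GATA repressor of iron uptake, had 541, 710 and 494.5 tags per 10 M in VeA::FLAG and 551 and 659 tags per 10 M in LaeA::FLAG replicates 2 and 3, at 242 bp upstream. gpdA, which encodes the glycolytic enzyme glyceraldehyde-3-phosphate dehydrogenase, had a region 730 bp upstream in 2 libraries of each strain. It kept its kind in 4 of 10 settings, and leaving out any of its own libraries removes it by the rule. amdX, a zinc finger regulator of acetamidase, had a region 578 bp upstream with 737, 687 and 553 tags per 10 M in VeA::FLAG and 809 and 860.3 tags per 10 M in LaeA::FLAG replicates 1 and 2. csmB, a chitin synthase with a myosin motor domain, was called in VeA::FLAG replicates 2 and 3 at 555 and 477 tags per 10 M and in the LaeA::FLAG replicates at 1004, 731 and 835 tags per 10 M. The LaeA::FLAG values were the higher, but these signals are not on 1 scale. The mean score percentiles were 89.2 in VeA::FLAG and 87.5 in LaeA::FLAG. agd3, known in Aspergillus fumigatus as a deacetylase of a cell wall polysaccharide, had 1147, 718 and 556 tags per 10 M in VeA::FLAG and 642 and 804 tags per 10 M in LaeA::FLAG replicates 1 and 2. fpaI, dspC and bgt3 had regions in all 6 libraries.

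The regions of both strains that ranked highest lay at genes without a symbol. AN7482 had 3987, 4088 and 3393 tags per 10 M in VeA::FLAG and 1305, 2174 and 1282 tags per 10 M in LaeA::FLAG, 801 bp upstream of exon 1. At AN8694 the peak lay 3902 bp upstream in an intergenic stretch, with 1796, 1706 and 1109 tags per 10 M in VeA::FLAG and 1400.2, 1329 and 1968 tags per 10 M in LaeA::FLAG. AN12030 had 2 such regions, at 158 bp before exon 1 and at exon 2. At AN7482 every VeA::FLAG value lay above every LaeA::FLAG value, whereas at AN8694 the strains overlapped, though the signals of the strains are not on 1 scale. The 14 regions of both strains with a WT peak were led by AN0010, AN12009 and AN9450, each called in all 6 libraries and in 1 WT library.

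**Figure D5:**
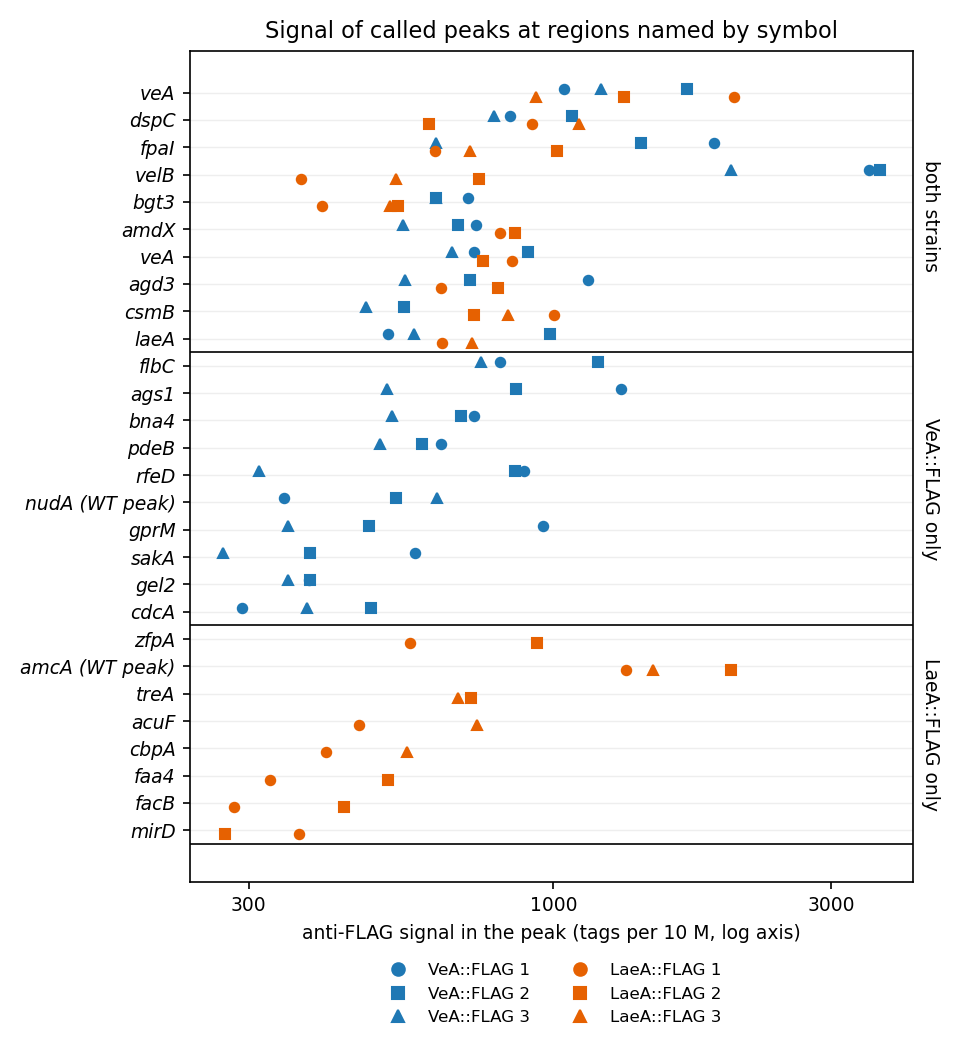
Anti-FLAG signal of called peaks in tags per 10 M (log axis) at the regions nearest to genes with a symbol, 10 of each of the first 2 kinds and 8 of the 9 LaeA::FLAG-only ones. Blue marks are VeA::FLAG and orange marks LaeA::FLAG replicates, and a missing mark means no call in that library. amcA and nudA had a WT peak. velB is the widest apart between the strains, though their signals are not on 1 scale.

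VeA::FLAG-only regions had 1329 distinct nearest genes, of which 145 had a symbol. The region of flbC, a zinc finger activator of conidiation, ranked highest among those with a symbol. It lay 223 bp upstream with 810.4, 1191 and 752 tags per 10 M in VeA::FLAG replicates 1, 2 and 3, and kept its kind in 10 of 10 settings. The nearest LaeA::FLAG peak of a single library was 822 bp away, but the pooled LaeA::FLAG list held a peak at 63 bp. Such a pooled LaeA::FLAG peak lay within 100 bp of 144 of the 1414 VeA::FLAG-only regions (10.2%) and of 40 of the 222 called in all 3 libraries (18.0%), against 12.8% of all regions. All regions include those with LaeA::FLAG calls, which the rule leaves out of this kind. flbB, a bZIP activator of conidiation, had a region 473 bp upstream in VeA::FLAG replicates 2 and 3 at 359 and 347 tags per 10 M. The closest pooled and single-library LaeA::FLAG peaks to it were 184 and 185 bp away. wetA, needed for spore wall maturation, had a region 1448 bp upstream in replicates 1 and 2 at 307 and 269 tags per 10 M.

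The named VeA::FLAG-only regions included genes of signalling. sakA, the stress-activated MAP kinase of the osmotic and oxidative response, had a region 26 bp upstream with 579, 383 and 271 tags per 10 M. The closest pooled and single-library LaeA::FLAG peaks to the sakA region were 213 and 217 bp away. mpkC, a related kinase, had a region 28 bp upstream in VeA::FLAG replicates 2 and 3, and mpkB, the MAP kinase of the sexual development pathway, one 189 bp upstream in replicates 1 and 3. gpaA, a G protein alpha subunit, had 592 and 302.2 tags per 10 M in VeA::FLAG replicates 2 and 3 at 513 bp upstream. pdeB, a cAMP phosphodiesterase, had 641, 594 and 505 tags per 10 M at 2215 bp upstream of exon 1, with a pooled LaeA::FLAG peak 16 bp away. gprM, a G protein-coupled receptor, had regions 1071 bp and 359 bp upstream, the first with 959.6, 483 and 350.3 tags per 10 M and with a pooled LaeA::FLAG peak on it. Replicate 1 gave the highest value at sakA and gprM, whereas replicate 2 did at flbC.

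Regulators of nutrient use were also near VeA::FLAG-only regions. areA, the GATA activator of nitrogen genes, had 3 VeA::FLAG-only regions, each called in 2 libraries, at 2959 and 1431 bp upstream of exon 1 and near exon 3, and the middle one had a WT peak. pacC, the regulator of the pH response, had 459 and 594 tags per 10 M in replicates 1 and 2 at 976 bp upstream. Its closest pooled and single-library LaeA::FLAG peaks were 241 and 162 bp away. cpcA, the bZIP regulator of amino acid starvation, had 843 and 433 tags per 10 M in replicates 2 and 3 at 204 bp upstream. A pooled LaeA::FLAG peak lay 140 bp from it and the closest of a single library 1897 bp. niiA, encoding nitrite reductase, had a region 369 bp upstream and another annotated to its end, with pooled LaeA::FLAG peaks 137 and 3 bp away. ags1, an alpha-glucan synthase of the cell wall, had 1305, 864 and 519 tags per 10 M at 821 bp upstream and was also near LaeA::FLAG calls, with a pooled peak 23 bp away and a peak of a single library 104 bp away. bna4, known in yeast as a kynurenine monooxygenase, had 731, 695 and 529 tags per 10 M at 33 bp upstream. nudA, the dynein heavy chain, had 345, 536 and 632 tags per 10 M at 135 bp upstream and a peak in WT replicate 1.

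vosA and kapA, both of the list of velvet genes and partners, had VeA::FLAG-only regions of low signal. vosA, a velvet protein of spore viability, had 298 and 190.2 tags per 10 M in replicates 1 and 2 at 175 bp into the gene, and a WT peak in replicate 2. kapA, the importin that carries VeA into the nucleus, had 99.5 and 269 tags per 10 M in the same replicates. The polyketide synthase gene pksP, of the conidial pigment, had 164 and 213 tags per 10 M in replicates 1 and 3 within exon 3. By contrast, the highest VeA::FLAG-only regions without a symbol, at AN3468, AN11860 and AN1848, had 1305, 1323 and 834, then 1091, 1487 and 951, then 1003, 1402 and 1016 tags per 10 M. AN3468 had a pooled LaeA::FLAG peak 71 bp away and AN11860 one 23 bp away, whereas the closest pooled LaeA::FLAG peak to AN1848 was 920 bp away and the closest of a single library 877 bp away.

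LaeA::FLAG-only regions had 123 distinct nearest genes and 9 symbols. In all 3 libraries and without a WT peak, only the regions at AN5775 and AN10964 were found. AN5775 had 737.2, 737 and 690.3 tags per 10 M in LaeA::FLAG replicates 1, 2 and 3 at 1379 bp upstream, and AN10964 had 837, 598 and 659 tags per 10 M at 68 bp upstream. Both had VeA::FLAG calls nearby. The closest pooled and single-library VeA::FLAG peaks were 581 and 226 bp from the AN5775 region and 149 and 355 bp from the AN10964 region. AN5775 also had a VeA::FLAG-only region 648 bp away. The IgG signals of the merged regions that hold them were 119, 239 and 226 tags per 10 M at AN5775 and 303, 241 and 243 tags per 10 M at AN10964 in the VeA::FLAG, LaeA::FLAG and WT IgG libraries. The 31 others called in all 3 libraries were led by AN3216, AN8655, AN5343, AN1912 and AN5173. At AN5343 the LaeA::FLAG signals were 14044, 23011 and 11169 tags per 10 M and the IgG signals 53922, 1368 and 3793 tags per 10 M in the same order of IgG libraries, with a peak in all 3 WT libraries.

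Of the 9 genes with a symbol, 2 had a WT peak, of which 1 is described here. This gene, amcA, a mitochondrial carrier of the acetyl-carnitine shuttle, had 1335, 2019 and 1483 tags per 10 M. The other 7 had no WT peak and were called in 2 libraries each. facB, the activator of acetate utilisation, had 283 and 438 tags per 10 M in replicates 1 and 2 at 693 bp upstream. acuF, encoding the gluconeogenic phosphoenolpyruvate carboxykinase, had 464 and 740.2 tags per 10 M in replicates 1 and 3 at 1008 bp upstream. treA, a trehalase, had 721 and 686 tags per 10 M in replicates 2 and 3 at 396 bp upstream, and faa4, known in yeast as an acyl-CoA synthetase, had 327 and 520.3 tags per 10 M in replicates 1 and 2 at 103 bp upstream. zfpA had 568 and 937.5 tags per 10 M in replicates 1 and 2, with a peak of the pooled VeA::FLAG list 38 bp away. Such a pooled VeA::FLAG peak lay within 100 bp of 8 of the 124 LaeA::FLAG-only regions (6.45%). The share over all regions was 27.4%, but these include 10458 called in 1 VeA::FLAG library alone. LaeA::FLAG-only regions have no VeA::FLAG call by the rule, so a lower share is built into it. Among the 72 without a WT peak, 19 (26.4%) had a VeA::FLAG peak of a single library within 200 bp. Within 500 bp it was 37 (51.4%). Among the 52 with a WT peak the shares were 3.85% and 11.5%. For VeA::FLAG-only regions and LaeA::FLAG peaks they were 8.20% and 22.9%, but the LaeA::FLAG lists are shorter. No share over all regions was computed for these distances, so nothing is read from them. cbpA and mirD had signals between 273 and 561 tags per 10 M. The 7 genes without a WT peak kept their kind in 6 to 8 of the 10 settings. Each was called in 2 libraries and is lost when either is left out, so 8 was the most possible.

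Some genes had regions of more than 1 kind. There were 23 genes with regions of both strains and of VeA::FLAG only, 5 with regions of both strains and of LaeA::FLAG only, 23 with VeA::FLAG-only and LaeA::FLAG-only regions and 0 with all 3 kinds. The kinds had 206, 1329 and 123 genes. Of all genes of merged regions, 2.16% were nearest to a region of both strains, 13.8% to a VeA::FLAG-only and 1.27% to a LaeA::FLAG-only region. The overlaps were not tested against these shares, and nothing is read from them. In the 23 genes with separate regions of each strain, the nearest pair lay 164.5 to 2893 bp apart (median 648 bp), and 4 of the LaeA::FLAG-only regions had a WT peak. At facB the LaeA::FLAG-only region lay 693 bp upstream and the VeA::FLAG-only region 192 bp past the start of exon 1. At zfpA the LaeA::FLAG-only region was the nearer, at 563 bp against 2041 bp upstream. Counting any peak of any single library, 41.4% of the 1329 genes of VeA::FLAG-only regions were also nearest to a LaeA::FLAG peak. Over all genes of merged regions it was 38.2%. Likewise, 60.2% of the 123 genes of LaeA::FLAG-only regions were nearest to a VeA::FLAG peak, against 77.0%. The shares over all genes include regions called in the other strain. The rule leaves such regions out of these kinds, so the contrasts are not independent of it.

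The lists of known regulators and pathways held 78 genes, of which 50 could be named by a symbol. Of these 50, 7 (14%) were the nearest gene of a region of both strains and 16 (32%) of a VeA::FLAG-only region, against 2.16% and 13.8% of all genes, and 0 were nearest to a LaeA::FLAG-only region, against 1.27%. The lists were drawn up with results of these data known, so nothing is read from the excess. The velvet list had veA, velB and laeA with regions of both strains and veA, vosA and kapA with VeA::FLAG-only regions, so that each of its 5 genes with a symbol had a region. Of the 11 genes of asexual development, flbB, flbC and wetA had VeA::FLAG-only regions and 8 had none, among them brlA and abaA, the central regulators of conidiation. The 2 sexual regulators with a symbol, nsdD and steA, had regions of both strains. Of 6 MAP kinase genes 3 had VeA::FLAG-only regions and ste7, atfA and pbs2 had none, and of 4 G protein and protein kinase A genes gpaA had one and sfaD, gpgA and pkaC had none. Of 7 metabolic regulators creA, hapX and nirA had none. The 3 light receptor genes fphA, lreA and lreB, the pigment and hydrophobin genes yA, ivoB, rodA and dewA and the 2 genes of the oxidative stress list, catA and cat1, had no region of the 3 kinds. A gene said here to have none may still be nearest to 1 of the 14838 regions outside the 3 kinds. Having none does not mean that no peak was called there.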

How the data were processed

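Per the study's methods, bowtie2 was used for mapping and HOMER 4.11, set to high sensitivity, for calling peaks. Per the file headers, HOMER also annotated the peaks on the FGSC A4 assembly and counted the tags of the IgG library of the strain in each peak. Whether that library was the control of the calling is not given in the sources used here. The deposited signal values are tags in a peak or merged region scaled by the authors to a library total of 10 M. The peak score deposited by the authors was used as a percentile within its library. The deposited distance runs from the peak centre to the nearest exon start.

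Regions were chained over the 6 tagged libraries from peak centres no more than 100 bp apart (python 3.11.15, pandas 2.3.3), with groups taken from the labels. Chaining was tested on simulated data. A region takes the nearest gene of its highest-ranked peak. Shares of peaks were compared over libraries by an exact two-sided permutation test with Benjamini-Hochberg adjustment over 6 shares. Named regions were the 10 highest of each kind without a WT peak (by number of libraries, then score percentile), the 10 highest with a symbol, members of the gene lists, veA and laeA, and the 5 highest with a WT peak. Members and lists were chosen with earlier results of these data known. Symbols came from RefSeq (assembly ASM1142v1), used for names only, and matched 92.2%, 92.1% and 88.6% of the genes of the 3 kinds. No genome sequence was used here, so sequence motifs were not analysed. A model of signal over common regions was planned only for a table of all 6 libraries and was not run. The alternatives tried are listed in the closing section. One named LaeA::FLAG-only region is not reported here.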

Additional observations from a re-analysis of the deposited data

How the results depend on the processing

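The numbers of regions moved most with the libraries and the list length. Leaving out 1 library at a time gave 92 to 160 regions of both strains, 523 to 1605 VeA::FLAG-only and 43 to 153 LaeA::FLAG-only regions. With 50 bp between centres 111 regions of both strains were found, without WT-marked regions 72 LaeA::FLAG-only regions remained, and with equal numbers of top-scoring peaks there were 104 regions of both strains and 117 VeA::FLAG-only regions. In all 3 libraries of each strain there were 50, 222 and 33 regions. Under 200 bp and a fold of at least 4 over IgG all 3 numbers stayed within 1.5 times. Of the regions themselves, 32 of 214, 29 of 1414 and 28 of 124 kept their kind in each of 10 settings (50 and 200 bp, equal top-scoring peaks, fold of at least 4 and each library left out), a count chosen after seeing the data. Leaving out a library removes any region called in only 2 libraries of that strain. Only the 50, 222 and 33 regions in all 3 libraries could therefore be kept. Of these 33 LaeA::FLAG-only regions 31 had a WT peak, so the kept ones are mostly WT-marked places. Of the VeA::FLAG-only regions 100 (7.07%) kept it with equal top-scoring peaks. Among the shares of peaks, equal top-scoring peaks reversed the difference in the exon class to -1.26 and in the intergenic class to 4.25 percentage points, moved that of exon 1 promoters from 0.22 to 10.4 (exact permutation test, p = 0.1) and that of peaks near WT peaks from -4.00 to -6.46, and left 0.06 for the promoter class and -3.05 for gene ends. Without 1 library the exon 1 promoter difference ranged from -1.15 to 2.44 points that of the exon class from -0.22 to 0.643, that of the intergenic class from -2.41 to -0.74 and that of peaks near WT peaks from -5.24 to -2.66. The changes in the WT shares and promoter shares of the kinds, also chosen after seeing the data, are given beside those values. No share passed 0.05 in any setting, and with 3 libraries a strain none could.

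Replicate numbers did not pair the libraries, since the deviations of libraries with the same number correlated at 0.014, -0.006 and 0.020. With the replicate number as a block the 6 differences were the same (3.27 points for the promoter class, 0.22 for exon 1 promoters, -1.83 for gene ends, 0.281 for exons, -1.72 for intergenic peaks and -4.00 for peaks near WT peaks) and the lowest exact p was 0.25, the least this test can give.

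Depth limits what an absent call means. LaeA::FLAG replicate 3 had the most tags and the fewest peaks, and the VeA::FLAG IgG library held 0 tags at up to 59.0% of the VeA::FLAG-only peaks of a library.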

Other observations

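Further VeA::FLAG-only regions lay at genes with a symbol that the lists did not hold, and the examples here were chosen after their values were seen. Besides areA, the genes nimT and tcsC had 3 VeA::FLAG-only regions each, the most at any 1 gene. nimT, which encodes the phosphatase that activates the mitotic kinase, had them 596, 2167 and 3379 bp upstream of exon 1, and tcsC, known in Aspergillus fumigatus as a histidine kinase of the osmotic response, had them 654, 1124 and 1790 bp upstream. A second histidine kinase gene, fos-1, had a region 75 bp upstream. yap1, the bZIP regulator of the oxidative response, had regions 42 and 407 bp upstream, and sod1, superoxide dismutase, had one 149 bp upstream. The chaperone genes hsp70 and hsp60 had regions 232 and 333 bp upstream. xlnR, the activator of xylanase genes, had one 901 bp upstream. None of these regions had a WT peak.

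Among the regions of both strains, ypdA, which encodes the phosphotransfer protein of the histidine kinase pathway, had 2 regions, 1931 and 2599 bp upstream of exon 1, each in VeA::FLAG replicates 1 and 2 and in 2 LaeA::FLAG libraries. hacA, the bZIP regulator of the unfolded protein response, had a region 169 bp upstream in VeA::FLAG replicates 2 and 3 and LaeA::FLAG replicates 1 and 3.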
